A study of Oryza sativa with 24 samples.

Results

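The H3K4me3 peak list of the rice hybrid labelled Nipponbare/93-11 was set, peak by peak, against that of its reciprocal, labelled 93-11/Nipponbare. The members are all 60472 peaks of these 2 lists, of 410072 peaks in the 16 lists of the series. A peak counted as shared when it overlapped a peak of the other hybrid by 1 bp or more, and otherwise as a peak of 1 hybrid only. Both lines are F1 hybrids of the japonica cultivar Nipponbare and the indica cultivar 93-11, so they carry the same parental genomes and differ in the direction of the cross. The labels do not say which name is the seed parent, and the names are used as given. Shoots were taken at the 4-leaf stage from 4-week-old seedlings grown in soil with 16 h of light at 28 °C. Whole shoots hold many cell types, so a peak present in few cells and a weak peak in all cells cannot be told apart. There was 1 library per hybrid, so no difference between the hybrids was tested, no p-value is given, and every difference is one between 2 libraries. The parents' H3K4me3 lists and the H3K9ac, H3K27me3 and DNA methylation lists of all 4 lines were not used to classify the peaks and serve as further readouts.

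H3K4me3 is trimethylation of lysine 4 of histone H3. In plants as in animals it sits on nucleosomes just downstream of the start sites of transcribed genes, where it is laid down by SET-domain methyltransferases and removed by JmjC-domain demethylases. H3K9ac, acetylation of the same histone tail, marks largely the same promoters. H3K27me3 is the mark of Polycomb repression, and cytosine methylation in rice is concentrated in transposons and repeats. In an F1 hybrid, a peak can come from the allele of either parent or from both, and a peak list does not separate the alleles.

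The hybrids listed almost the same H3K4me3 landscape. Of 30697 peaks in Nipponbare/93-11, 28782 were shared and 1915 were in that hybrid only, which is 6.24% (95% interval 5.97 to 6.51%). Of 29775 peaks in 93-11/Nipponbare, 28710 were shared and 1065 were in that hybrid only, which is 3.58% (3.37 to 3.79%). The intervals are exact Clopper-Pearson intervals and cover counting error only. The peaks of a single hybrid covered 2.18 of 45.4 Mb in Nipponbare/93-11 and 1.30 of 47.3 Mb in 93-11/Nipponbare. Nipponbare/93-11, with the larger count, also had the longer list. With that list shortened to 29775 peaks by dropping the narrowest, the shares were 5.45% in Nipponbare/93-11 and 5.65% in 93-11/Nipponbare, so their order turned. This trimming pushes the shares that way by construction. Narrow peaks were more often unshared, and a peak whose only partner is dropped becomes unshared. The part of list length in the larger count was not tested.

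For comparison, 8.81% of H3K9ac, 12.5% of H3K27me3 and 20.9% of DNA methylation peaks of Nipponbare/93-11 had no overlap in 93-11/Nipponbare. In the other direction these values were 3.88, 13 and 22%. Between the parents, 13.4% of the H3K4me3 peaks of Nipponbare and 11.1% of those of 93-11 were unshared. H3K4me3 thus had the lowest unshared share of the 4 marks in both directions, a comparison of libraries that was not tested.

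Shared peaks also matched closely in position and width. In 28475 pairs, each peak overlapped the other and no further peak. Their left edges lay a median of 72 bp apart and their right edges 72 bp, and the overlap was a median of 89.0% of the wider peak. It was at least 50% of the wider peak in 99.2% of pairs, and below that in 219 pairs. Across the pairs the widths had a Pearson correlation of 0.875 and a Spearman correlation of 0.845, which describe peaks and not independent samples. The 93-11/Nipponbare peak was the wider in 67.3% of pairs, by a median of 77 bp over all pairs, with quartiles of -38 and 235 bp. This excess in width was seen on each of the 12 chromosomes, with medians from 63 bp on chromosome 8 to 87 bp on chromosome 5. The list with fewer peaks was thus the one with wider peaks.

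Few pairs differed much in width. In 151 pairs the 93-11/Nipponbare peak was at least 2 times as wide, and in 43 pairs the Nipponbare/93-11 peak was. The largest excess in 93-11/Nipponbare lay at chr3:11146529-11151468, where its peak was 4939 bp and that of Nipponbare/93-11 1466 bp. H3K9ac was listed there in all 4 lines, and H3K27me3 in all but Nipponbare/93-11. At chr5:13656088-13660263 the widths were 4175 and 1293 bp, and H3K27me3 was listed in 93-11 and 93-11/Nipponbare alone. In the opposite direction, the Nipponbare/93-11 peak at chr1:38580845-38585975 was 5065 bp against 1326 bp, with H3K9ac in all 4 lines. At chr5:19727779-19733236 the widths were 5457 and 1855 bp, and H3K4me3 was listed in 93-11 and not in Nipponbare.

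Peaks of 1 hybrid only were narrow. In Nipponbare/93-11 their median width was 1002 bp (quartiles 809 and 1292 bp), against 1389 bp (1118 and 1755 bp) for shared peaks. In 93-11/Nipponbare the medians were 1059 bp (872 and 1329 bp) and 1494 bp (1213 and 1861 bp). When each list was cut into 10 classes of equal size by width, the unshared share fell from 22.1% in the narrowest class to 2.05% in the seventh in Nipponbare/93-11, and from 14.2% to 0.873% in 93-11/Nipponbare. It did not go on falling among the widest peaks. In the widest class it was 2.93% (2.36 to 3.59%) and 1.58% (1.16 to 2.09%), and among the widest 1% of peaks it was 7.17% (22 of 307, 4.55 to 10.6%) and 5.70% (17 of 298, 3.36 to 8.98%). The seventh class was the lowest of the 10 in both lists, so a comparison with it favours a rise. The intervals of the widest 1% include the shares of the whole lists, 6.24 and 3.58%.

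**Figure D1:**
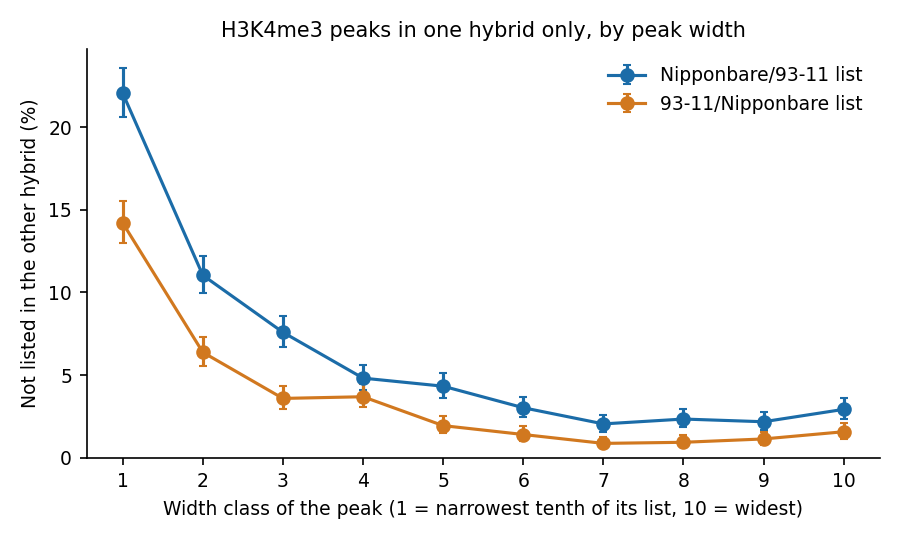
Share of H3K4me3 peaks with no overlap in the other hybrid (vertical axis, percent) for 10 width classes of each list (horizontal axis, 1 narrowest, 10 widest); points are shares and bars exact 95% intervals for counting error. The share falls from 22.1 and 14.2% in the narrowest class to 2.05 and 0.873% in the seventh and is slightly higher, 2.93 and 1.58%, in the widest.

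Most peaks of a single hybrid lay 500 bp or more from any peak of the other hybrid. Whether some are fragments of a peak that the other hybrid listed next door was not tested. The nearest peak of the other hybrid was a median of 2697 bp away for Nipponbare/93-11 and 3131 bp away for 93-11/Nipponbare. Under 100 bp separated 16 and 4 peaks, respectively, from the other hybrid's nearest peak, and under 500 bp separated 219 (11.4%) and 83 (7.79%). Under 1000 bp separated 410 (21.4%) and 184 (17.3%). At the far end, 598 peaks (31.2%) and 369 peaks (34.6%) had no peak of the other hybrid within 5000 bp. They did lie closer to neighbours within their own list than shared peaks did, with median gaps of 2705 against 4230 bp in Nipponbare/93-11 and 3366 against 4278 bp in 93-11/Nipponbare. Of Nipponbare/93-11 peaks less than 500 bp from a neighbour in their list, 17.7% (15.5 to 20.1%) were unshared, against 4.37% (4.01 to 4.77%) of those 5000 to 20000 bp away. In 93-11/Nipponbare these shares were 9.57% (7.68 to 11.7%) and 3.04% (2.73 to 3.37%). The share did not simply fall with distance. At 20000 bp or more from a neighbour it was 8.22% (6.52 to 10.2%) in Nipponbare/93-11 and 4.29% (3.08 to 5.79%) in 93-11/Nipponbare. An unshared peak of the other hybrid lay within 1 kb of 32 of the 1915 in Nipponbare/93-11 (1.67%, 1.15 to 2.35%). In 93-11/Nipponbare it did so for 33 of the 1065 (3.10%, 2.14 to 4.32%). The same share was not counted over all peaks, so whether these are few was not tested.

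The parents' H3K4me3 lists divided the unshared peaks very differently from the shared ones. Shared peaks were listed in both parents in 83.6% of cases in Nipponbare/93-11 and 83.7% in 93-11/Nipponbare. Peaks in Nipponbare/93-11 only were listed in both parents in 195 of 1915 cases (10.2%, 8.86 to 11.6%), in Nipponbare alone in 636 (33.2%, 31.1 to 35.4%), in 93-11 alone in 378 (19.7%, 18 to 21.6%) and in neither in 706 (36.9%, 34.7 to 39.1%). Peaks in 93-11/Nipponbare only were listed in both parents in 151 of 1065 cases (14.2%, 12.1 to 16.4%), in Nipponbare alone in 143 (13.4%, 11.4 to 15.6%), in 93-11 alone in 342 (32.1%, 29.3 to 35%) and in neither in 429 (40.3%, 37.3 to 43.3%). The whole lists already held more peaks of Nipponbare alone than of 93-11 alone, at 10.1 and 7.04% in Nipponbare/93-11 and 8.72 and 7.07% in 93-11/Nipponbare. Within these classes, the share of peaks that were unshared was somewhat higher for Nipponbare alone in Nipponbare/93-11. It was 20.5% (19.1 to 22%) of 3102 for Nipponbare alone and 17.5% (15.9 to 19.2%) of 2161 for 93-11 alone, with intervals that overlap only at their ends. In 93-11/Nipponbare it was 5.51% (4.66 to 6.46%) of 2595 and 16.2% (14.7 to 17.9%) of 2106. Peaks seen in neither parent made up 1.62 and 1.59% of shared peaks.

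**Figure D2:**
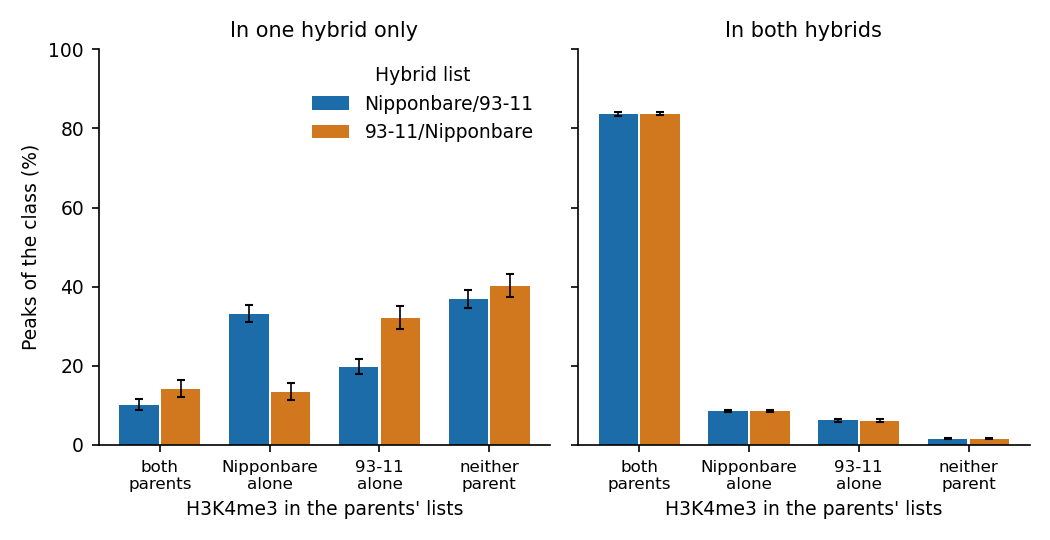
Share of H3K4me3 peaks (vertical axis, percent) by their presence in the parents' H3K4me3 lists, for peaks of 1 hybrid only (left) and peaks of both hybrids (right); bars are the lists of Nipponbare/93-11 (blue) and 93-11/Nipponbare (orange), with exact 95% intervals. Peaks listed in Nipponbare alone make up 33.2 and 13.4% of the unshared peaks and peaks listed in 93-11 alone 19.7 and 32.1%, while the shared peaks have the same makeup in both lists.

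Read as the unshared share within each class, 93-11/Nipponbare had the same order along the whole genome and Nipponbare/93-11 did not. In 93-11/Nipponbare the share was higher for peaks of 93-11 alone than for those of Nipponbare alone on 12 of 12 chromosomes, from 11.2 against 9.79% on chromosome 1 to 15.3 against 1.5% on chromosome 2. In Nipponbare/93-11 it was higher for peaks of Nipponbare alone on 8 chromosomes and for peaks of 93-11 alone on 4. Chromosome 6 had 31 against 17.8% there, and chromosome 10 had 15.5 against 21.2%. Chromosomes are parts of the same libraries and not replicates.

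Counted from the parents' side, the lists as deposited differed at the Nipponbare peaks and little at the 93-11 peaks. Of 3792 H3K4me3 peaks that Nipponbare had and 93-11 lacked, 634 (16.7%, 15.5 to 17.9%) were listed in Nipponbare/93-11 and not in 93-11/Nipponbare, and 150 (3.96%, 3.36 to 4.63%) the other way round. Of 3063 peaks that 93-11 had and Nipponbare lacked, 381 (12.4%, 11.3 to 13.7%) were in Nipponbare/93-11 alone and 353 (11.5%, 10.4 to 12.7%) in 93-11/Nipponbare alone, with intervals that overlap. These counts of parental peaks were not repeated with equal list lengths, but those of unshared hybrid peaks were. As deposited, 636 unshared peaks of Nipponbare/93-11 and 143 of 93-11/Nipponbare were listed in Nipponbare alone, and 378 and 342 in 93-11 alone. With equal list lengths these counts were 569 and 238, and 319 and 494. In the deposited lists, on every one of the 12 chromosomes more of the Nipponbare peaks were in Nipponbare/93-11 alone, with 60 against 32 on chromosome 1 and 67 against 3 on chromosome 2. For the 93-11 peaks the order varied, with 55 and 33 on chromosome 1 and 42 and 49 on chromosome 3.

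The width difference of shared peaks also varied with the parental class. In pairs listed in both parents, the 93-11/Nipponbare peak was wider by a median of 87 bp and was the wider in 69.2% of 23853 pairs. In the 2425 pairs listed in Nipponbare alone, the median excess was 7 bp and 51.5% were wider, and in the 1743 pairs listed in 93-11 alone it was 65 bp and 66.3%. In the 454 pairs listed in neither parent it was 23 bp and 55.7%. The excess in width of 93-11/Nipponbare was thus nearly absent at positions that only Nipponbare listed among the parents. It was also small where neither parent had a peak.

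The other marks, each classified from its own lists, did not all follow H3K4me3. For H3K9ac in 93-11/Nipponbare, the unshared share was 7.27% (6.37 to 8.24%) for peaks of Nipponbare alone and 15.8% (14.2 to 17.5%) for peaks of 93-11 alone, the order seen for H3K4me3. In Nipponbare/93-11 it was 20.9% (19.6 to 22.3%) and 24% (22.3 to 25.9%). For H3K27me3 the values were 16.9 and 24.6% in 93-11/Nipponbare and 23.5 and 19.4% in Nipponbare/93-11. DNA methylation in 93-11/Nipponbare ran the opposite way, at 47.8% (46.4 to 49.2%) for Nipponbare alone and 14.1% (13.1 to 15%) for 93-11 alone, and in Nipponbare/93-11 the values were 23.4 and 28.8%. All of these directions rest on the labels of the libraries.

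H3K9ac was often listed in both hybrids where H3K4me3 was listed in 1. Of the peaks with H3K4me3 in Nipponbare/93-11 only, 64.9% (62.7 to 67.0%) had H3K9ac in that hybrid and 53.1% (50.8 to 55.4%) had it in 93-11/Nipponbare, where H3K4me3 was not listed. Both hybrids listed H3K9ac at 888 of them (46.4%), Nipponbare/93-11 alone at 354 (18.5%), 93-11/Nipponbare alone at 129 (6.74%) and neither at 544 (28.4%). At shared H3K4me3 peaks of the same list, H3K9ac was in both hybrids in 91.1% of cases, in Nipponbare/93-11 alone in 3.89% and in 93-11/Nipponbare alone in 1.56%.

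At the peaks with H3K4me3 in 93-11/Nipponbare only, H3K9ac was more often in the hybrid that lacked H3K4me3, though the wider peaks showed no clear order. It was listed in 39.7% (36.8 to 42.7%) in 93-11/Nipponbare itself and in 46.9% (500 of 1065) in Nipponbare/93-11. It was in 93-11/Nipponbare alone at 79 peaks (7.42%), in Nipponbare/93-11 alone at 156 (14.6%), in both at 344 (32.3%) and in neither at 486 (45.6%). Shared peaks of that list also had H3K9ac more often in Nipponbare/93-11 alone (3.86%) than in 93-11/Nipponbare alone (1.54%), and the H3K9ac list of Nipponbare/93-11 is the longer one, with 31943 against 30254 peaks. The part of list length in these shares was not tested. Among the 177 of median width or more, H3K9ac was listed at 42.4% (75 of 177) in Nipponbare/93-11 and 45.2% (80 of 177) in 93-11/Nipponbare. The interval of the latter, 37.7 to 52.8%, includes the former, so these few peaks do not settle an order.

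H3K9ac in the parents followed the parental H3K4me3 class. Of the 636 peaks with H3K4me3 in Nipponbare/93-11 only and in Nipponbare alone, 81.8% had H3K9ac in Nipponbare, 14.8% in 93-11, 72.8% (69.2 to 76.2%) in Nipponbare/93-11 and 58.5% (54.6 to 62.4%) in 93-11/Nipponbare. Of the 342 with H3K4me3 in 93-11/Nipponbare only and in 93-11 alone, 62.3% had H3K9ac in 93-11, 36% in Nipponbare, 50.6% (45.2 to 56.0%) in Nipponbare/93-11 and 42.1% (36.8 to 47.5%) in 93-11/Nipponbare. Where neither parent had H3K4me3, H3K9ac was still listed in Nipponbare at 45.6% of the 706 peaks of Nipponbare/93-11 only and at 37.8% of the 429 of 93-11/Nipponbare only.

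**Figure D3:**
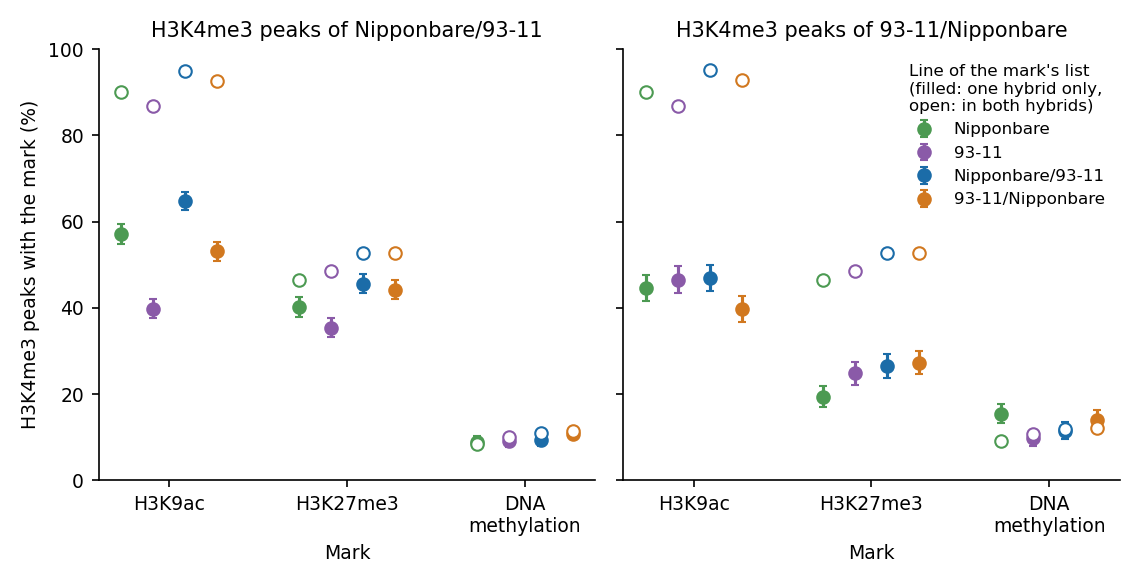
Share of the H3K4me3 peaks of each hybrid (vertical axis, percent) that overlap a peak of H3K9ac, H3K27me3 or DNA methylation in each of the 4 lines (colours); filled points are H3K4me3 peaks of 1 hybrid only, open points those of both hybrids, bars exact 95% intervals. At unshared peaks H3K9ac lies at 64.9 and 53.1% in the hybrids for Nipponbare/93-11 (left) and at 46.9 and 39.7% for 93-11/Nipponbare (right), and H3K27me3 is lower on the right.

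In the hybrids the Polycomb mark, like H3K9ac, was listed less often at the unshared peaks of 93-11/Nipponbare than at those of Nipponbare/93-11. For H3K9ac in the hybrid with the H3K4me3 peak, the values were 39.7 and 64.9%. H3K27me3 lay on 45.6% (43.4 to 47.9%) of the peaks of Nipponbare/93-11 only in that hybrid and on 44.2% (42.0 to 46.5%) in 93-11/Nipponbare, against 52.7% of shared peaks in either line. At the peaks of 93-11/Nipponbare only it lay on 27.3% (24.7 to 30.1%) in that hybrid and on 26.5% (23.9 to 29.2%) in Nipponbare/93-11, and on 19.3% in Nipponbare and 24.8% in 93-11. So for H3K27me3 the hybrid lists were within 2 percentage points of each other at both sets of peaks. DNA methylation was rare at unshared and shared peaks alike. It was listed on 9.30% (8.03 to 10.7%) of the peaks of Nipponbare/93-11 only in that hybrid and on 10.9% (9.50 to 12.3%) in the other. At shared peaks of that list these values were 11.0 and 11.3%. At the peaks of 93-11/Nipponbare only it was on 14.1% (12 to 16.3%) in that hybrid and on 11.4% (9.52 to 13.4%) in Nipponbare/93-11, against 12.1 and 11.9% of shared peaks. In Nipponbare it was on 15.3% (13.2 to 17.6%) of them, against 9.08% of shared peaks.

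Along the genome the unshared peaks were spread over all 12 chromosomes. In Nipponbare/93-11 the unshared share ran from 5.30% (4.59 to 6.08%) on chromosome 3 to 8.30% (7.12 to 9.61%) on chromosome 11, against 6.24% for the list. Chromosome 11 was the only one whose interval lay wholly above the list's value, and chromosome 3 the only one wholly below. In 93-11/Nipponbare the share ran from 2.70% (2.17 to 3.33%) on chromosome 2 to 4.55% (3.77 to 5.42%) on chromosome 4, against 3.58%, and these 2 intervals lay wholly below and above it. Chromosome 11 stood at 4.02% (3.18 to 5.01%). With equal list lengths chromosome 11 was highest in both hybrids, at 6.59 and 7.52%. On chromosome 11, 80 of the 164 peaks of Nipponbare/93-11 only were listed in Nipponbare alone and 25 in 93-11 alone.

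**Figure D4:**
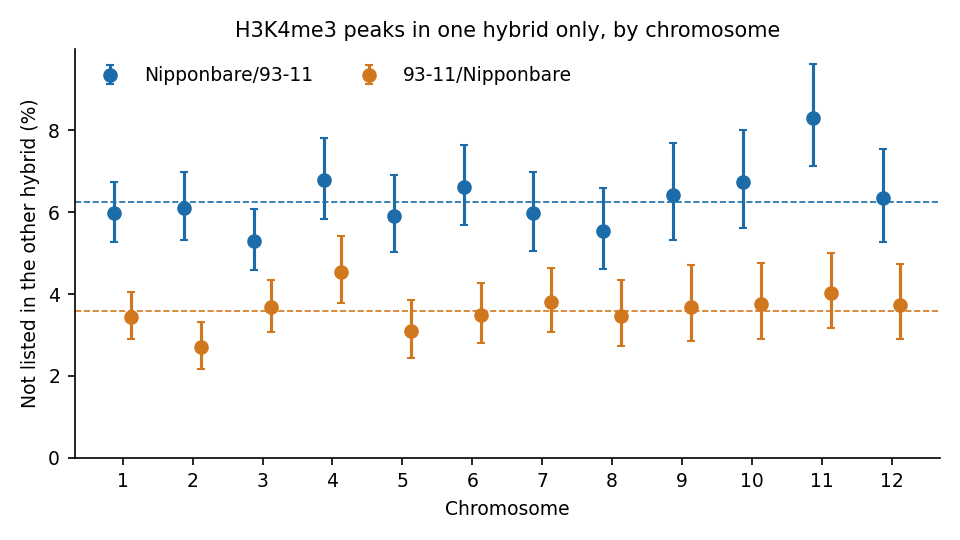
Share of H3K4me3 peaks with no overlap in the other hybrid (vertical axis, percent) on each of the 12 chromosomes; points are the lists of Nipponbare/93-11 (blue) and 93-11/Nipponbare (orange), bars exact 95% intervals, dashed lines the whole lists at 6.24 and 3.58%. Chromosome 11 is highest in blue at 8.30% and chromosome 4 in orange at 4.55%.

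No zone along the chromosome arms stood far out. Within 1 Mb of the nearer end of a chromosome's listed span, the unshared share was 5.14% (4.30 to 6.09%) for Nipponbare/93-11 and 3.75% (3.03 to 4.59%) for 93-11/Nipponbare. From 1 to 2 Mb the shares were 6.86% (5.89 to 7.94%) and 4.42% (3.63 to 5.33%), and beyond 10 Mb 6.25 and 3.62%. The Nipponbare/93-11 interval within 1 Mb lay wholly below its list's value of 6.24%. The 93-11/Nipponbare interval from 1 to 2 Mb lay wholly above its list's value of 3.58%. Windows of 100 kb with 12 or more DNA methylation peaks of the same hybrid had 7.07% (5.37 to 9.10%) and 4.28% (3.05 to 5.83%) unshared, and those with 3 or fewer 6.01% (5.28 to 6.82%) and 3.25% (2.72 to 3.85%).

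In 378 windows of 1 Mb, the number of peaks in 1 hybrid only had a median of 5 and a maximum of 14 for Nipponbare/93-11, and a median of 3 and a maximum of 9 for 93-11/Nipponbare. The windows of the 2 hybrids had a Pearson correlation of 0.247 (Spearman 0.260) in these counts, and each hybrid's counts followed its number of peaks in the window at 0.534 (Spearman 0.545) and 0.399 (Spearman 0.382). Windows are not replicates. The window with most was on chromosome 11 from 21000001 to 22000000, where 14 of 80 Nipponbare/93-11 peaks were unshared, 9 of them listed in Nipponbare alone and 0 in 93-11 alone, and 4 of 70 peaks of 93-11/Nipponbare were unshared. Next came chromosome 2 from 1000001 to 2000000, with 13 of 140 peaks, and from 22000001 to 23000000, with 13 of 106, of which 7 were listed in Nipponbare alone. For 93-11/Nipponbare the first was chromosome 1 from 41000001 to 42000000, with 9 of 109 peaks, beside 8 unshared peaks of Nipponbare/93-11. Chromosome 4 from 23000001 to 24000000 had 8 in each hybrid, and chromosome 5 from 1 to 1000000 had 8, of which 5 were listed in 93-11 alone.

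Unshared peaks stood mostly alone. In Nipponbare/93-11, 1637 of the 1915 had a shared peak on both sides or a chromosome end, 117 pairs stood side by side, 12 runs held 3 peaks and 2 runs held 4. In 93-11/Nipponbare, 970 of 1065 stood alone, 46 pairs stood side by side and 1 run held 3. An unshared neighbour was found at 14.5% (13 to 16.2%) of the unshared peaks of Nipponbare/93-11, against 11.9% (11.5 to 12.3%) of its shared peaks. In 93-11/Nipponbare these shares were 8.92% (7.28 to 10.8%) and 6.93% (6.64 to 7.23%). The shares of unshared peaks were thus higher by less than 3 percentage points, and no run in the deposited lists held more than 4 peaks. The longest run of Nipponbare/93-11 held 5 with a 50% reciprocal overlap and 7 with lists at or above their median width. With equal list lengths, the share of unshared peaks with an unshared neighbour was 12.8% in Nipponbare/93-11 and 15.2% in 93-11/Nipponbare, and the latter had 120 runs of 2 or more in place of 47.

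A run of 4 peaks, the highest number in a run, lay at chr7:2372707-2438951 (66.2 kb). It held 4 H3K4me3 peaks in Nipponbare/93-11, of 782 to 1403 bp, and 0 in 93-11/Nipponbare, beside 5 in Nipponbare and 0 in 93-11. H3K9ac was also absent from 93-11 and 93-11/Nipponbare there, and had 4 peaks in each of the other lines. It lay on all 4 of the run's H3K4me3 peaks in Nipponbare/93-11 and on 2 of these positions in Nipponbare. H3K27me3 did not: the parents had 4 peaks (Nipponbare) and 0 (93-11), and the hybrids 8 (Nipponbare/93-11) and 10 (93-11/Nipponbare). It covered 3 of the 4 positions in Nipponbare/93-11 and all 4 in 93-11/Nipponbare. DNA methylation was listed in every line with 6, 4, 5 and 4 peaks in the same order, and on none of the 4 positions. In this stretch, then, 93-11/Nipponbare listed the Polycomb mark without either active mark, and 93-11 listed no histone peak.

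**Figure D5:**
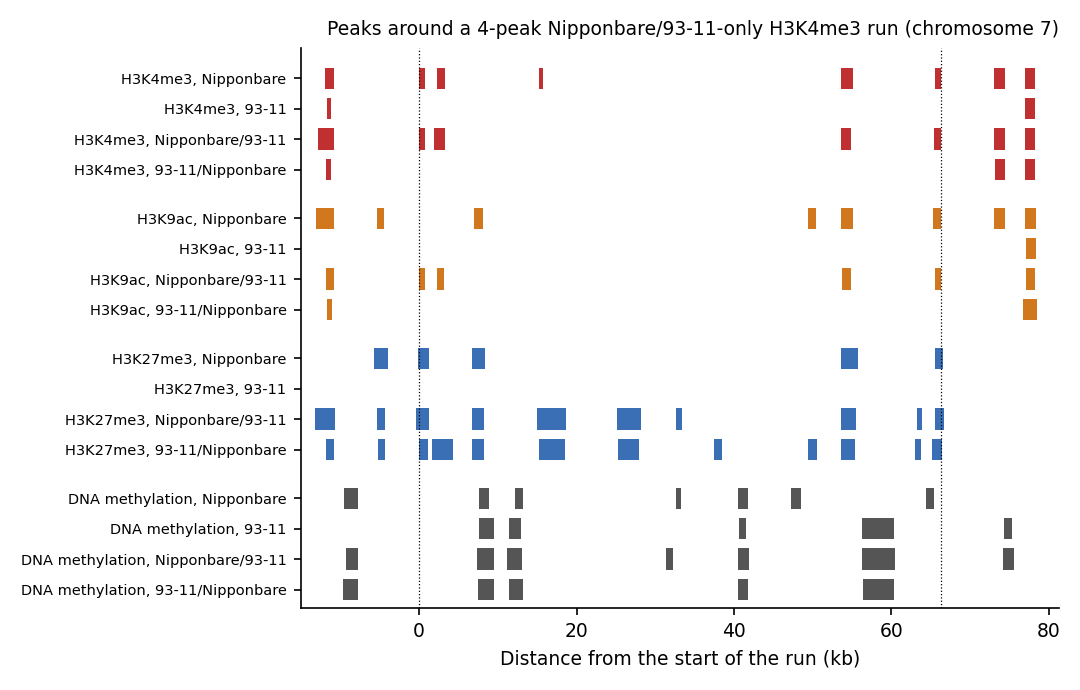
Map of the listed peaks (boxes, to scale) of the 4 marks in the 4 lines around the run on chromosome 7; the horizontal axis is the distance in kb from the start of the run, and dotted lines mark its ends. Within the run, H3K4me3 and H3K9ac have 4 peaks each in Nipponbare/93-11 and 0 in 93-11/Nipponbare, while H3K27me3 has 8 and 10.

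The other runs varied in makeup. At chr10:18969961-19001549, the other run of 4, narrow peaks of 613 to 666 bp were in Nipponbare/93-11 only, with 1 H3K4me3 peak in each parent, and H3K27me3 covered all 4 positions in 93-11/Nipponbare and 3 in Nipponbare/93-11. At chr12:8298642-8395129 (96.5 kb), 3 peaks were in Nipponbare/93-11 only and all were listed in Nipponbare alone. H3K9ac had 4 peaks there in Nipponbare, 0 in 93-11 and 2 in each hybrid. At chr10:5075712-5113187, the 3 peaks were listed in 93-11 alone, in neither parent and in both parents, and both hybrids had 2 H3K9ac peaks. The run of 3 in 93-11/Nipponbare, at chr4:29817567-29831783, had 0 H3K4me3 peaks in Nipponbare and 2 in 93-11, while H3K9ac had 3 peaks in Nipponbare and 2 in each other line. At chr12:18175608-18244781, 2 peaks of 638 and 900 bp were in 93-11/Nipponbare only and in neither parent, and DNA methylation overlapped both in that hybrid and in Nipponbare. At chr5:11528749-11571369, 2 peaks of 1034 and 1120 bp had H3K9ac in both hybrids.

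The widest peak of a single hybrid, and of all 4 H3K4me3 lists, spanned chr9:3-36957 (36954 bp) in 93-11/Nipponbare. No other list of the 16, of any mark or line, had a peak there, and the first peak of any other list on chromosome 9 started at 39225. The next widest H3K4me3 peak of that hybrid was 6560 bp, and the widest of the other 3 lines were 8713, 6229 and 6516 bp. Together with the next peak, from 118400 to 119429, it formed one of the hybrid's runs of 2. Whether it is a peak of H3K4me3 or of the peak calling was not tested. Without it, 1064 of 29774 peaks (3.57%) were unshared, they covered 1.27 Mb, the unshared share of the widest 1% was 5.37% (16 of 298, 3.10 to 8.57%), and there were 46 runs of 2 or more. This was added after its values were seen.

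Of the unshared 93-11/Nipponbare peaks of at least the list's median width, 40 of 177 (22.6%, 16.7 to 29.5%) were listed in both parents and 67 (37.9%, 30.7 to 45.4%) in 93-11 alone. At chr7:18262371-18267099 (4728 bp), both parents had H3K4me3, and both hybrids had H3K9ac. At chr9:16354636-16358932 (4296 bp), both parents had H3K4me3, no line had H3K9ac, and DNA methylation was listed in 93-11 and both hybrids. At chr5:27591476-27595643 (4167 bp), both parents had H3K4me3 and no line had H3K9ac. At chr6:25944913-25949354 (4441 bp), H3K4me3 was in 93-11 alone among the parents, H3K9ac was missing from Nipponbare alone, and each line listed H3K27me3. The peaks at chr1:8519460-8523419 (3959 bp) and chr2:28809712-28813287 (3575 bp) were the next widest of those in neither parent after the one on chromosome 9. The first had H3K9ac in 93-11 and both hybrids, and the second had H3K27me3 in all 4 lines and no H3K9ac.

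In Nipponbare/93-11, the widest peak of that hybrid only, at chr5:29296325-29301093 (4768 bp), was listed in Nipponbare alone among the parents, and H3K9ac in Nipponbare/93-11 alone of the 4 lines. At chr12:27427799-27432340 (4541 bp), neither parent had H3K4me3, while H3K9ac and H3K27me3 were in all 4 lines. At chr11:19126108-19130595 (4487 bp), H3K4me3 was in Nipponbare and H3K9ac in 93-11 and 93-11/Nipponbare, the lines without H3K4me3. At chr12:25578824-25583311 (4487 bp), H3K4me3 was in Nipponbare and H3K9ac in both hybrids. At chr5:14770564-14774924 (4360 bp), neither parent had H3K4me3, and H3K27me3 was in both parents and Nipponbare/93-11. At chr5:23167901-23171318 (3417 bp), neither parent had H3K4me3, no line had H3K9ac and all 4 had H3K27me3.

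Among peaks that both parents and Nipponbare/93-11 listed and 93-11/Nipponbare did not, the widest lay at chr5:25938875-25943223 (4348 bp). H3K9ac was listed there in both parents and in 93-11/Nipponbare, and not in Nipponbare/93-11. At chr6:30181992-30185854 (3862 bp), H3K9ac was listed in 93-11 and Nipponbare/93-11. At chr1:3595467-3599305 (3838 bp), each line listed H3K27me3, and H3K9ac was absent from Nipponbare alone. A peak of a single hybrid that both parents list was rare, at 195 of 24263 such peaks (0.804%, 0.695 to 0.924%) in Nipponbare/93-11 and 151 of 24188 (0.624%, 0.529 to 0.732%) in 93-11/Nipponbare.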

How the data were processed

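The authors deposited 1 peak list per library, with chromosome, start and end in 3 columns, no header, and no height, score or p-value. Which aligner, peak caller, threshold, control library and build lie behind them is not given in the sources used here. The deposited values are positions, so the depth of each library is unknown. Width is end minus start, and positions are as the files give them, with no statement of whether they count from 0 or 1. No genome or annotation of a stated build was used, so no gene is named, no sequence printed, and the labelled tissue was not checked against marker genes. Samples of mRNA and of small RNA, 8 in all, are not analysed here.

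Overlap of at least 1 bp defined shared peaks, and a run was 2 or more consecutive unshared peaks of a list. With 1 library per list there is no replicate, so shares carry exact Clopper-Pearson 95% intervals and no test was run. Named regions followed a written rule: per hybrid, the 5 widest unshared peaks, the 3 widest in both parents and in neither, the 4 longest runs and the 3 windows of 1 Mb with most, and the 2 pairs with the largest width difference in each direction. The members, the rule and the comparisons were chosen with earlier results of these data known. Alternatives were a 50% reciprocal overlap, a gap of 500 bp counted as shared, lists at or above their median width, equal list lengths, and merging of peaks under 500 bp apart. Overlap counts were tested on simulated data and equalled direct comparison for 500 of 500 peaks. Intervals came from scipy 1.17.1, tables from pandas 2.3.3 and numpy 2.4.6 under Python 3.11.15, and plots from matplotlib 3.10.9.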

Additional observations from a re-analysis of the deposited data

How the results depend on the processing

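No paired analysis was possible because there was 1 library per hybrid, and leaving out a replicate was not possible for the same reason. A count of unshared peaks depends on both list lengths and on the unknown depth behind them. With equal list lengths the order of the hybrids turned for the unshared count (1623 against 1681 peaks), the median width, the share next to another unshared peak and the number of runs. It turned too for the share with H3K9ac in the other hybrid and the highest share of a chromosome. Under the other 4 alternatives Nipponbare/93-11 had the larger unshared count. In every alternative, unshared Nipponbare/93-11 peaks were, by count, listed more often in Nipponbare alone than in 93-11 alone and unshared 93-11/Nipponbare peaks the other way round. Keeping peaks of at least the median width makes a wide peak unshared when its partner is narrower than its own list's median, by construction. Shortening the longer list alone likewise removes narrow, often unshared peaks from it. It also makes peaks of the other list unshared when their only partner is dropped. In the following pairs of values Nipponbare/93-11 comes first.

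With a 50% reciprocal overlap, the unshared shares were 7.63 and 4.77%, the median width in 93-11/Nipponbare 1155 bp, the shares next to another unshared peak 20.0 and 12.1%, those with H3K9ac in the other hybrid 58.3 and 57.6%, the share listed in Nipponbare alone 29.3% in Nipponbare/93-11, and the highest share of a chromosome in 93-11/Nipponbare 5.87%. With a gap of 500 bp counted as shared, the unshared shares were 5.52 and 3.30% and the median width in Nipponbare/93-11 983 bp. With lists at or above their median width, the unshared shares were 18.9 and 16.4%, the median widths 1485 and 1612 bp, the shares next to an unshared peak 37.8 and 31.7%, those with H3K9ac in the other hybrid 88.8 and 91.3%, and those listed in Nipponbare alone 16.6 and 4.92%. With equal list lengths, the unshared shares were 5.45 and 5.65%, the median widths 1069 and 954 bp, and the shares next to an unshared peak 12.8 and 15.2%. The shares with H3K9ac in the other hybrid were then 53.9 and 62.3%, and the highest share of a chromosome 6.59 and 7.52%, on chromosome 11 in both. With peaks under 500 bp apart merged, the unshared shares were 5.74 and 3.36%. The median width difference of paired peaks was 76 bp under both alternatives tried for it, which were chosen after seeing the data. Runs of 2 or more unshared peaks numbered 131 and 47 as deposited, 218 and 84 with a 50% reciprocal overlap, 477 and 346 with lists at or above their median width, and 100 and 120 with equal list lengths.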

Other observations

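At a few positions all 3 histone marks differed between the hybrids in the same direction. Of the 1915 peaks with H3K4me3 in Nipponbare/93-11 only, 26 (1.36%, 0.889 to 1.98%) also had H3K9ac and H3K27me3 in that hybrid and not in the other, and of the 1065 in 93-11/Nipponbare only 4 (0.376%, 0.102 to 0.959%) did. Taken singly, H3K9ac and H3K27me3 were in the same hybrid alone at 18.5 and 6.48% of the 1915, and at 7.42 and 4.32% of the 1065. At shared H3K4me3 peaks these shares were 3.89 and 5.55%, and 1.54 and 5.56%. The joint share at shared peaks was not counted. Whether the marks coincided more often than unrelated marks would was not tested. Regions with H3K4me3 and H3K9ac in the same single hybrid, named after their values were seen as the widest of their kind, included chr10:20463131-20466315 (3184 bp) in Nipponbare/93-11, where neither parent had either mark and H3K27me3 was in 93-11 and Nipponbare/93-11. In 93-11/Nipponbare they included chr2:27525494-27529145 (3651 bp), where both parents had H3K4me3 and neither had H3K9ac, and chr9:17318844-17321931 (3087 bp) and chr7:27159886-27162629 (2743 bp), where neither parent had either mark.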
